A study of Mus musculus with 89 samples.

Results

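App and Aplp2 are 2 members of the amyloid precursor family, described here through every exon-skipping event that 2 deposited tables list for them. They are 2 of the 9542 genes of the HSV table, with 16 of its 27900 events (13 of App, 3 of Aplp2), and 2 of the 3434 genes of the dCas9-SET2 table, with 5 of its 5608 events (3 of App, 2 of Aplp2). Both genes were taken by name, by a rule that uses no measured value, although earlier results of these data were known when they were proposed. An event is an exon with its flanking exons, counted as reads that include the exon and reads that skip it. The 168-nt exons of both genes, which code for their Kunitz domains, were included less often in a set of 3 HSV libraries than in a set of 2, while the short exons near the membrane-spanning part of both proteins gave no call.

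The study concerned the histone mark H3K36me3 and splicing of nucleus accumbens, a part of the mouse striatum that serves reward. Its 89 samples fall into 21 groups, and the 48 samples that are not RNA were not analysed here. The HSV groups are HSV-Set2 (herpes simplex virus carrying the H3K36 methyltransferase Set2), HSV-R195G (Set2 with the substitution R195G) and HSV-GFP (green fluorescent protein), with 3 RNA libraries each. The other RNA groups are dCas9-SET2-sgRNA-SRSF11 (SET2 joined to a Cas9 that cannot cut, sent by its guide to Srsf11, a gene of a splicing factor) and dCas9-SET2-sgRNA-NT (the same fusion with a guide labelled NT), with 16 runs each under 4 sample names of 4 runs. All RNA came from wild type C57BL/6 mice of 8 weeks, and the sources used here do not give the promoter that drives the transgenes.

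Neither table names the libraries in its columns. The HSV table has a set of 3 and a set of 2 libraries, so it holds 5 of the 9, and no virus was assigned to either set. The dCas9-SET2 table has a second and a first set of 16 runs, and no guide was assigned to either. In both of those sets the runs at positions 4 and 8 held the same counts in every event and were counted as 1, which leaves 15 distinct runs per set. The other pairs of runs shared at most 37.9% of their values. Reads over all listed events were 7428974 to 8341849 per library in the 3-library set and 8366275 to 8638249 in the 2-library set, and 56946 to 84870 per run in the second set and 79799 to 106251 in the first. Nothing in the labels says that libraries came from separate animals, so p-values rest only on spread between these libraries, which may be technical. In the main fit of inclusion that spread is 1 value shared among all events, not that of each exon.

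The HSV libraries differ beyond both genes. Markers of medium spiny neurons, the main cells of this region, were present in all of them. Their summed coverage (CPM, reads scaled to library size) was 3966, 4101 and 3844 in the 3-library set. In the 2-library set it was 11863 and 9624. Of 9 measured 8 were called lower in the 3-library set (limma, adjusted p below 0.05). Pdyn was lower without a call (mean 156 CPM in the 3-library set and 182 CPM in the 2-library set). Over all 8201 genes tested 13.2% were called higher and 9.49% lower. All 14 measured interferon response genes were called higher in the 3-library set (3669, 3243 and 3583 CPM summed, against 86.4 and 198.8 in the 2-library set). Of oligodendrocyte markers 7 of 9 were called higher, of microglia and macrophage markers 6 of 10, and of astrocyte markers 3 of 6. Summed oligodendrocyte coverage overlapped between the sets (11289, 8628 and 11114 CPM in the 3-library set, against 6544 and 8836 in the 2-library set). Enpp2 (log2 -1.07), Cd68 (-0.5), Slc1a2 (-0.125) and Aldoc (-0.123) of these lists were lower in the 3-library set without a call. Of 5 neuron markers 2 were called higher and 3 lower. Without 1 library of the 3-library set in turn, 3 to 8 oligodendrocyte and 2 to 4 microglia and macrophage markers were called higher. For astrocyte markers the count was 2 to 3, and 0 markers of these lists were called lower. Of neuron markers 2 were called higher and 1 lower, while the medium spiny neuron (8) and interferon (14) counts held. The oligodendrocyte and the microglia and macrophage counts were lowest without library 1 or 3 of the 3-library set. Without a library of the 2-library set, which leaves 1 there, some lists were mixed in direction. Markers of oligodendrocytes and of microglia and macrophages were called both higher and lower without library 1, and astrocyte markers without library 2. The choroid plexus markers Ttr and Clic6 were lower (37.5, 35.3 and 28.5 summed in the 3-library set, against 434.5 and 9967 in the 2-library set), and library 2 of the 2-library set stands apart in them. The Ttr call stayed without each library, while that of Clic6 (adjusted p = 0.0487, limma) was lost without 4 of the 5 in turn (up to 0.566, without library 2 of the 2-library set) and when scaled by total reads (0.0633). None of 4 oligodendrocyte precursor markers was listed, and none of 8 endothelial and mural markers reached the minimum of reads. The part of these differences in the results on App and Aplp2 was not tested, and in bulk tissue fewer cells of a type and less RNA per cell cannot be told apart.

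App and Aplp2 code for membrane proteins with a large outer part and a short tail inside the cell, and the third family member is Aplp1. Secretases cut them near and within the membrane, and cutting of App by the beta and then the gamma secretase gives the amyloid beta peptide, which Aplp2 does not hold. Alternative exons change the outer part. A 168-nt exon of either gene codes for a Kunitz domain, which inhibits serine proteases. The 57-nt exon of App that follows codes for a short stretch with likeness to the OX-2 antigen, and neurons mainly make App without either exon. Leaving out a 54-nt exon of App, or a 36-nt exon of Aplp2, creates a site at which chondroitin sulfate can be attached. The lengths 168, 57, 54 and 36 correspond to 56, 19, 18 and 12 codons, so each exon can be skipped without a shift of the reading frame.

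Coverage of both genes was higher in the 3-library set. Gene coverage is the number of reads over the deepest listed event of a gene, in CPM, and is a partial stand-in for expression. App had 2383, 2400 and 2335 CPM in the 3-library set, against 1978 and 1838 CPM in the 2-library set. Aplp2 had 448, 481 and 475 CPM in the 3-library set, against 369 and 332 CPM in the 2-library set. For both genes every library of the 3-library set lay above both others. The difference was 1.24-fold for App (log2 0.32, SE 0.07, adjusted p = 0.00589, limma) and 1.34-fold for Aplp2 (log2 0.42, SE 0.09, adjusted p = 0.00349, limma). Of all 8201 genes tested 13.2% were called higher and 9.49% lower, with a median log2 difference of 0.000433. Both calls stayed under every other scaling and without each library, and the highest adjusted p was 0.0499 for App, without library 1 of the 3-library set. Per kilobase of the counted form, App coverage was 6378 ± 91 CPM in the 3-library set and 5130 ± 267 CPM in the 2-library set (SD, n = 3 and 2). Aplp2 had 1516 ± 56.4 CPM per kilobase in the 3-library set and 1135 ± 82.9 in the 2-library set, so App stood above Aplp2 in every library on this scale.

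**Figure D1:**
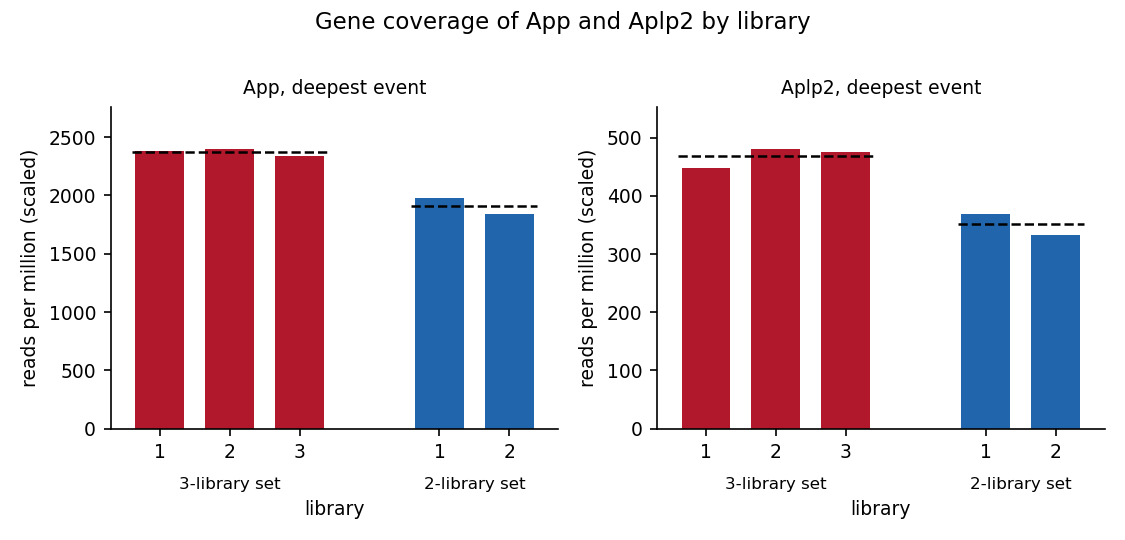
Gene coverage of App and Aplp2 in CPM, reads scaled to library size (vertical axes from 0) for each library of the 3-library set (red) and the 2-library set (blue), with dashed lines at the set means. All 3 red bars stand above both blue bars in each panel.

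Because coverage of both genes moved the same way, their promoters are shown, from 250 bases before to 50 bases after the start, as RefSeq gives them on GRCm38.p6. Both members were matched. Capitals mark the GC box GGGCGG, searched with its reverse complement, a motif that the factor Sp1 is known to bind.
App, chr16:85173658-85173957, minus strand: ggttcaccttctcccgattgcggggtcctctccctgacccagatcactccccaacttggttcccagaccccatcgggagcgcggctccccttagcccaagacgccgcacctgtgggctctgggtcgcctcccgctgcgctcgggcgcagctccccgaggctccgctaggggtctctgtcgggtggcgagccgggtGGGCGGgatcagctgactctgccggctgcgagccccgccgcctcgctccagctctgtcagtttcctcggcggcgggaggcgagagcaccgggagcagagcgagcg
Aplp2, chr9:31211799-31212098, minus strand: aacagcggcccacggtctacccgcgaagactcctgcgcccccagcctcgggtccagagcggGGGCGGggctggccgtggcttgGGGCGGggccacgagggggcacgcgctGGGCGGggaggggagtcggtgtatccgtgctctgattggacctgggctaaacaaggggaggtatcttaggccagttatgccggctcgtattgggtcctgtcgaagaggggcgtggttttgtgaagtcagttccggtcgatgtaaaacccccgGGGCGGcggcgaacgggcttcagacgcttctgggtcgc
The App window held the motif 1 time and the Aplp2 window 4 times, and G and C made up 71% and 67% of their bases. The motif was in 35.7% of 32851 promoter windows of 300 bases. A match is a description of letters, not of binding.

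In the HSV table, 6 of the 16 events could be tested, with a mean of at least 20 reads per library and at least 10 reads of the rarer form. The other 10 had 1 to 9 skipping reads over all 5 libraries. Of these, 6 concern 4 exons with no tested event, and skipping was at most 0.259% of the counted forms in a library. They include a 222-nt exon of App, with 8520 to 9787 inclusion reads in the 3-library set and 7462 to 8032 in the 2-library set in its deepest event, and a 159-nt exon of Aplp2 with 1735 to 1842 in the 3-library set and 1348 to 1498 in the 2-library set. A second 168-nt exon of App, nearer the start of the gene (chromosome 16, 85120775 to 85120942) and not the Kunitz exon, had 9 skipping reads and 22943 inclusion reads in all. The remaining 4 concern the App Kunitz exon (1 event) and the App 54-nt exon (3 events) between other flanking exons than in their tested events, so they do not give the share of transcripts that hold these exons.

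Of the 6 tested events 3 were called, and all 3 had lower inclusion in the 3-library set (limma, adjusted p below 0.05 over 7754 events). That of the App OX-2 exon is not independent of the App Kunitz call, since they share reads. Over all tested events 2.00% were called lower and 1.69% higher. In these 3 events no library of one set lay among those of the other, against 28.4% of all tested events. Both genes had a called event, against 5.82% of 4194 tested genes. The authors' deposited table called 2 of the 6, the Kunitz exons, at an FDR below 0.05, and 12.6% of all tested events.

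The Kunitz exon of Aplp2 showed the larger difference in PSI, and that of App the lower ratio of PSI (0.485, against 0.728 for Aplp2). The Aplp2 exon lies on chromosome 9 at 30975146 to 30975313 on the minus strand, as the HSV table gives it. Its inclusion level (PSI, the fraction of counted transcripts that hold the exon, corrected for the length of each form) was 0.565, 0.647 and 0.565 in the 3-library set, against 0.806 and 0.821 in the 2-library set. The exon was thus in a smaller share of Aplp2 transcripts in every library of the 3-library set, of which the second stood highest. The mean was 0.592 ± 0.0474 in the 3-library set and 0.814 ± 0.0102 in the 2-library set (SD, n = 3 and 2), a difference of -0.221. On the logit scale the difference was -1.12 (SE 0.11, adjusted p = 1.53e-22, limma), which is 3.05-fold lower odds of inclusion. An exact permutation test over the 5 libraries gave p = 0.1, the smallest this design allows (two-sided).

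In reads, the sets differed in the skipping form of Aplp2. Inclusion reads were 1219, 1085 and 1006 in the 3-library set, against 1121 and 1233 in the 2-library set. Skipping reads were 443, 279 and 365 in the 3-library set, against 127 and 127 in the 2-library set. After scaling, inclusion reads averaged 288 ± 11.1 CPM in the 3-library set and 290 ± 19.6 CPM in the 2-library set, a ratio of 0.994 within the spread between libraries. Skipping reads averaged 94.3 ± 17.1 CPM in the 3-library set and 31.3 ± 0.0128 CPM in the 2-library set, 3.02-fold higher in the 3-library set. The SD of the 2-library set rests on 2 libraries with equal counts.

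The Kunitz exon of App was rare in all libraries and rarer in the 3-library set. It lies on chromosome 16 at 85043821 to 85043988 on the minus strand, as the HSV table gives it. Its tested event joins it to the exon before it and the exon after the OX-2 exon. Reads that join it to the OX-2 exon lie outside these flanks, so its PSI may be understated. PSI was 0.043, 0.0446 and 0.0367 in the 3-library set, against 0.0715 and 0.0994 in the 2-library set. The sets did not overlap, and the 2 libraries of the 2-library set differed from each other by more than counting error, with 95% exact intervals of 0.0647 to 0.0788 and 0.0912 to 0.108. The mean was 0.0414 ± 0.00416 in the 3-library set and 0.0854 ± 0.0197 in the 2-library set (SD, n = 3 and 2), a ratio of 0.485. On the logit scale the difference was -0.77 (SE 0.07, adjusted p = 8.87e-25, limma), or 2.17-fold lower odds, with an exact permutation p of 0.1.

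In App the sets differed in both forms. Inclusion reads were 331, 330 and 259 in the 3-library set, against 409 and 553 in the 2-library set. Skipping reads were 3472, 3337 and 3205 in the 3-library set, against 2505 and 2364 in the 2-library set. Scaled inclusion reads averaged 80.1 ± 8.94 CPM in the 3-library set and 118 ± 25.1 CPM in the 2-library set, a ratio of 0.676. Scaled skipping reads averaged 874 ± 26.8 CPM in the 3-library set and 599 ± 24.3 CPM in the 2-library set, 1.46-fold higher. The form of App without the Kunitz exon was the main form in each library.

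**Figure D2:**
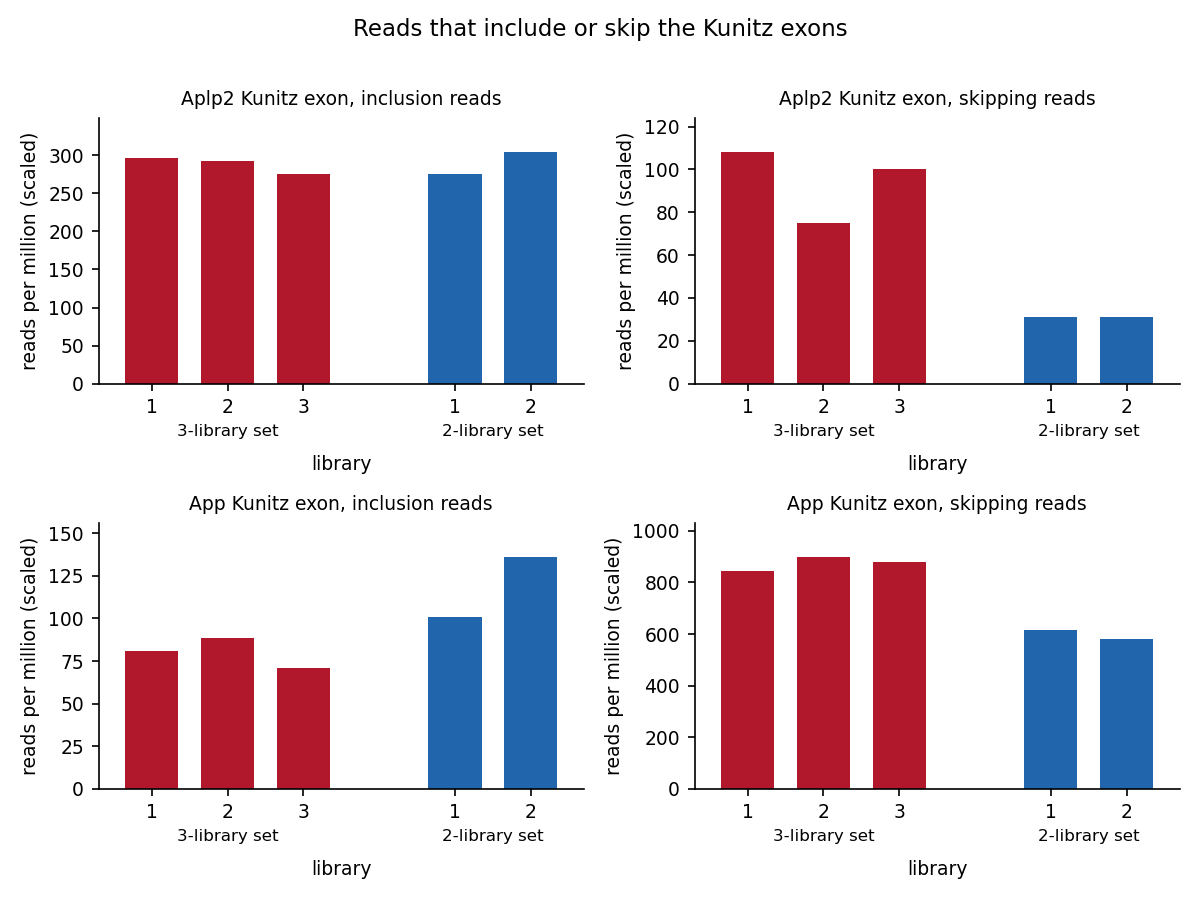
Reads scaled to library size, in CPM (vertical axes from 0), that include or skip the 168-nt Kunitz exon of Aplp2 (top) and App (bottom), by library of the 3-library set (red) and the 2-library set (blue). For Aplp2 the inclusion bars overlap between sets and the skipping bars are higher in red, while for App the inclusion bars are lower and the skipping bars higher in red.

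By adjusted p the App and Aplp2 Kunitz exons stood 13th and 15th of the 7754 tested events, and by the size of the fall in PSI 1691st and 138th. The fit shared 1 spread among all events after weighting by reads, so deep events such as these can reach very small p-values. Both calls stayed without each library of the 3-library set in turn (adjusted p up to 8.81e-18 for App and 3.47e-17 for Aplp2, limma). Without library 2 of the 2-library set, which stood apart in choroid plexus markers, the logit difference was -0.57 for App and -1.07 for Aplp2. Library 1 of the 2-library set also held more of these markers (434.5 CPM summed) than the 3-library set (28.5 to 37.5), so a difference in them remains. Without weights neither passed (adjusted p = 0.535 for App and 0.421 for Aplp2, unadjusted 0.0769 and 0.0219, limma), and of all events tested 0 did in that fit, with 790 at unadjusted p below 0.05. The logit of Aplp2 minus that of App was 3.36, 3.67 and 3.53 in the 3-library set, against 3.99 and 3.72 in the 2-library set, a difference of -0.34 that an exact permutation test did not separate from no difference in change between the exons (p = 0.2, smallest possible 0.1).

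**Figure D3:**
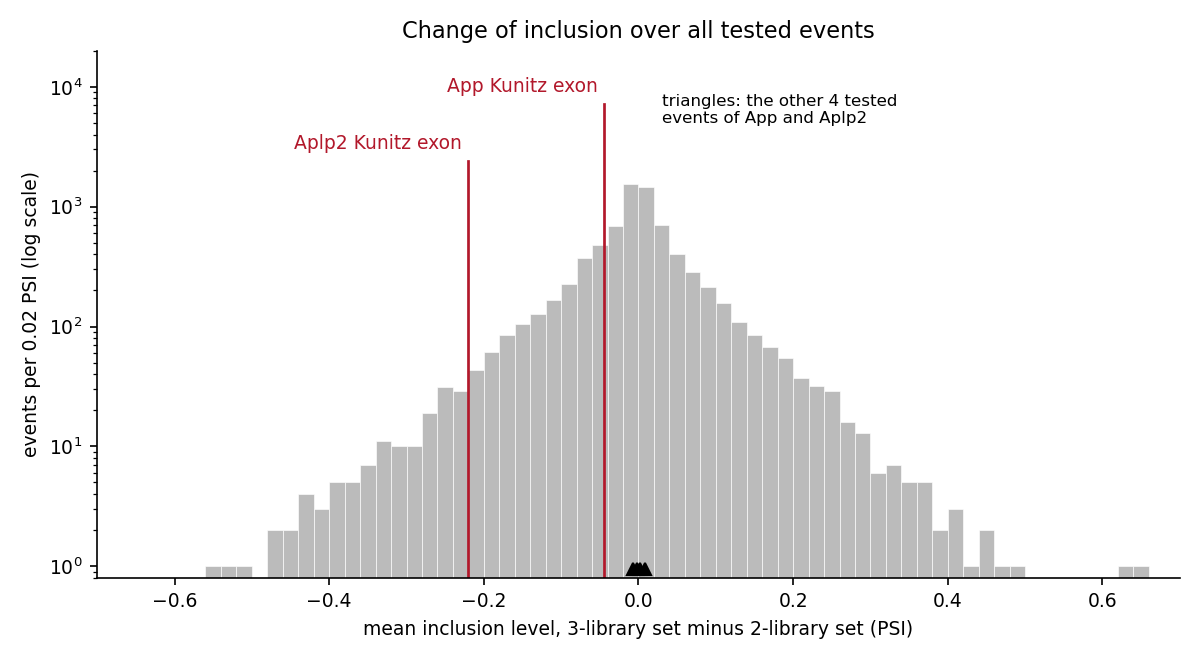
Difference in mean PSI, 3-library set minus 2-library set (horizontal axis), over the 7754 tested events, as the number of events per bin of 0.02 on a log axis. The Kunitz exon of Aplp2 lies at -0.221, out in the lower tail, that of App at -0.044, and the other 4 tested events of both genes (triangles) lie near 0.

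The 57-nt OX-2 exon of App was tested between 2 pairs of flanking exons (chromosome 16, 85040496 to 85040552). Where the Kunitz exon precedes it, PSI was 0.322, 0.401 and 0.342 in the 3-library set, against 0.38 and 0.335 in the 2-library set. The sets overlapped, and the logit difference was 0.0081 with a 95% interval of -0.305 to 0.321 (adjusted p = 0.988, limma). In either set a minority of the transcripts with the Kunitz exon thus also held the OX-2 exon. The other event sets the OX-2 exon against the exon before the Kunitz exon, with 25, 35 and 18 inclusion reads in the 3-library set, against 37 and 45 in the 2-library set. Its PSI was 0.00519, 0.00754 and 0.00405 in the 3-library set, against 0.0106 and 0.0136 in the 2-library set (logit difference -0.74, SE 0.23, adjusted p = 0.0331, limma).

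This last call does not measure a form of App that holds the OX-2 exon alone. Reads that join the OX-2 exon directly to the exon before the Kunitz exon are the skipping reads of an untested event, 0, 1 and 0 in the 3-library set, against 1 and 0 in the 2-library set. Nearly all inclusion reads of the called event are thus reads that transcripts with both exons also give, and its skipping reads are those of the Kunitz event. The call was lost without library 1 or 2 of the 2-library set (adjusted p = 0.0638 and 0.38, limma), without library 1 or 3 of the 3-library set (0.152 and 0.176), with the spread trended on depth (0.0629), with no filter on reads (0.0645) and without weights (0.547). The authors' deposited table gave it an FDR of 1.

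The exons near the membrane were included in most transcripts, and their libraries overlapped between the sets. The 54-nt exon of App lies on chromosome 16 at 84971653 to 84971706. Its PSI was 0.985, 0.981 and 0.982 in the 3-library set, against 0.989 and 0.972 in the 2-library set. Its logit difference was 0.19 with a 95% interval of -0.109 to 0.494 (adjusted p = 0.614, limma). The skipping form, which can carry chondroitin sulfate, had 73, 84 and 74 reads in the 3-library set, against 41 and 102 in the 2-library set. Without library 2 of the 2-library set the difference was -0.514 (adjusted p = 0.377), so its sign rests on single libraries.

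The corresponding 36-nt exon of Aplp2 lies on chromosome 9 at 30963775 to 30963810. Its PSI was 0.871, 0.884 and 0.882 in the 3-library set, against 0.885 and 0.856 in the 2-library set. Skipping reads were 137, 109 and 108 in the 3-library set, against 95 and 113 in the 2-library set. The logit difference was 0.08 with a 95% interval of -0.184 to 0.336 (adjusted p = 0.853, limma). These intervals leave room for changes of either sign, but the difference found for the Aplp2 Kunitz exon (-1.12) lies outside that of the 36-nt exon.

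**Figure D4:**
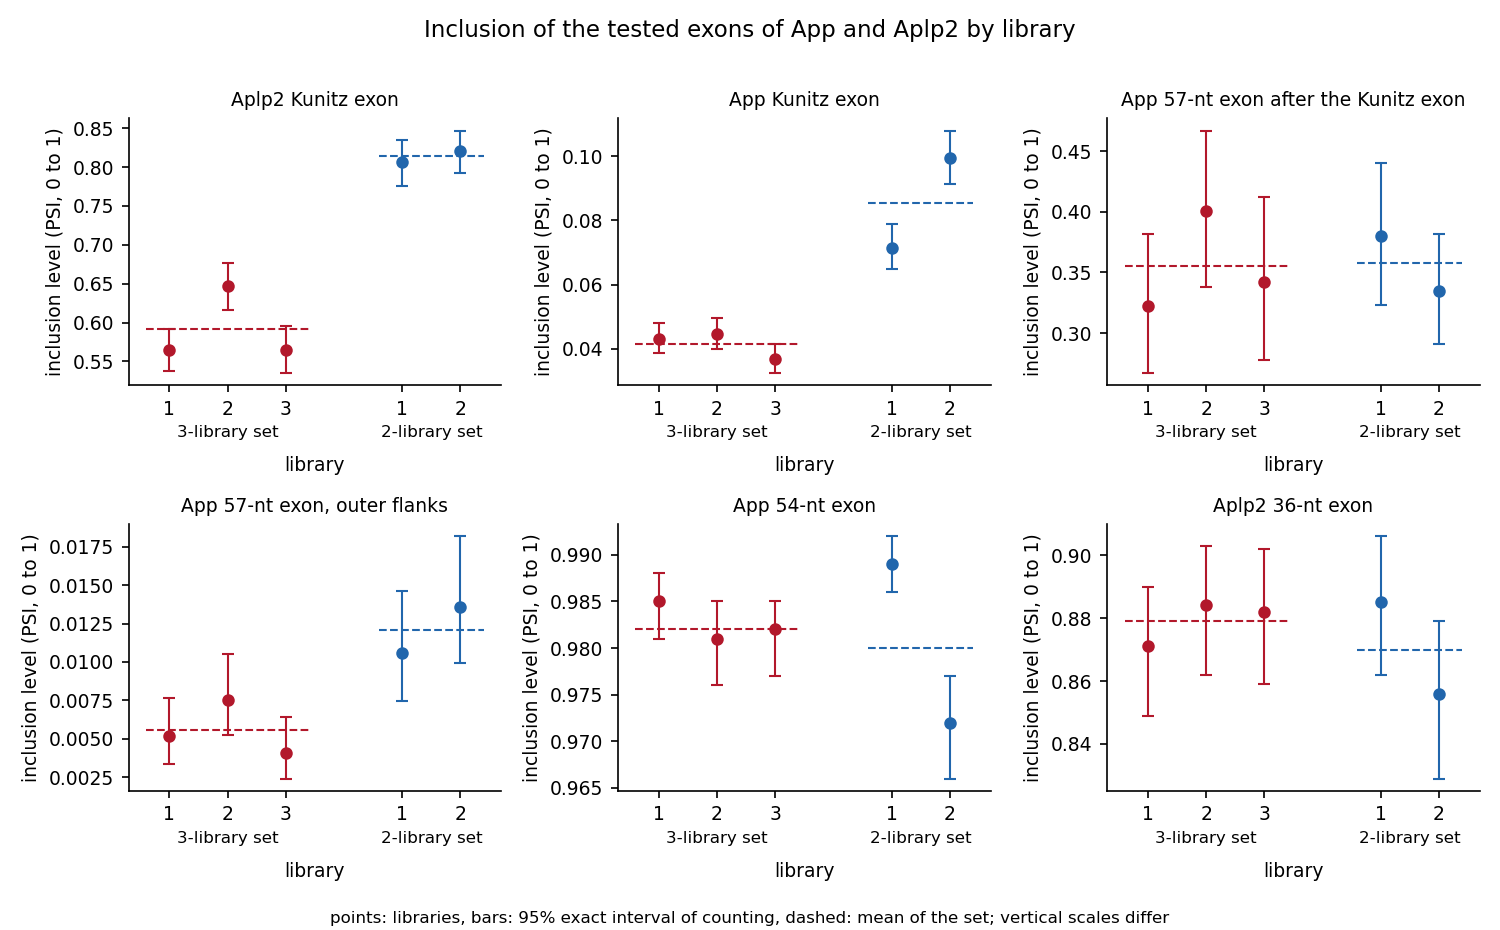
PSI of the 6 tested events by library, 3-library set in red and 2-library set in blue, with 95% exact intervals for counting error and dashed set means. The vertical scales differ between panels. The sets are apart for both Kunitz exons and for the event that sets the 57-nt exon against the exon before the Kunitz exon (outer flanks), and overlap in the other 3 panels.

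The order of mean PSI was the same in both sets, from the App Kunitz exon (0.0414 in the 3-library set and 0.0854 in the 2-library set) through the App OX-2 exon after it (0.355 and 0.358), the Aplp2 Kunitz exon (0.592 and 0.814) and the Aplp2 36-nt exon (0.879 and 0.87) to the App 54-nt exon (0.982 and 0.98). Neighbours in this order were apart in every library. The narrowest gap was between the Aplp2 exons in the 2-library set, at 0.806 and 0.821 for the Kunitz exon and 0.885 and 0.856 for the 36-nt exon.

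Events of other genes with the most similar pattern were found by the root mean square (RMS) difference of PSI over the 5 libraries. For the Aplp2 Kunitz exon these were a 45-nt exon of Camk2b, the beta subunit of the calcium/calmodulin kinase (RMS 0.0533), a 78-nt exon of Nbdy (0.0653) and a 39-nt exon of the adhesion molecule gene Alcam (0.0657), of 1645 events compared. For the App 54-nt exon they were a 116-nt exon of Ndufa6 (0.00481), a 160-nt exon of Ndufb3 (0.0051) and a 33-nt exon of Mbp (0.00525), of 301. For coverage, after centring each gene, App was nearest to Flywch1, Nap1l4 and Prkcsh (RMS 0.0164, 0.0184 and 0.0236 on the log2 scale) and Aplp2 to Hyou1, Snap47 and Rab11a (0.0177, 0.0217 and 0.0222), of 8138 genes.

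Around both genes, a list of 76 other amyloid pathway genes was counted, of which 35 had a tested event and 5 a called one (14.3%, against 5.82% of all tested genes), with inclusion in the 3-library set higher in 3 and lower in 2 of them. Of the 2 secretase genes tested 0 had a call in limma, 0 at unadjusted p below 0.05 and 0 in the authors' deposited table, and Aplp1 had no tested event. Among tail adaptors and partners 2 of 11 had one. A 111-nt exon of Cttn, the actin-binding protein cortactin, had PSI 0.663, 0.551 and 0.56 in the 3-library set, against 0.319 and 0.447 in the 2-library set (limma, adjusted p = 2.36e-05). Dab2, an endocytic adaptor, was called for a 654-nt exon, which had PSI 0.793, 0.79 and 0.938 in the 3-library set, against 0.691 and 0.415 in the 2-library set (adjusted p = 0.0233). The Cttn call was lost without library 1 of the 2-library set (adjusted p = 0.0967), and the Dab2 call without 4 of the 5 libraries in turn, with adjusted p up to 0.796 without library 2 of the 2-library set.

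Among sorting and endocytosis genes 3 of 14 had a called event. A 2124-nt exon of Rtn3, a reticulon that shapes the endoplasmic reticulum and binds the beta secretase, had PSI 0.112, 0.106 and 0.127 in the 3-library set, against 0.222 and 0.196 in the 2-library set (limma, adjusted p = 1.82e-42). Vps29, a retromer subunit, was called for a 12-nt exon, which had PSI 0.0609, 0.0707 and 0.0767 in the 3-library set, against 0.142 and 0.168 in the 2-library set (adjusted p = 0.0014). A 108-nt exon of Bin1, a membrane-curving endocytic protein, had 0.675, 0.63 and 0.64 in the 3-library set, against 0.435 and 0.472 in the 2-library set (adjusted p = 8.29e-07). Bin1, Cttn and Rtn3 each had a further called event of the same exon, in the same direction (adjusted p = 0.0246, 0.000111 and 0.00415). Each of these further calls was lost without at least 1 library, with adjusted p up to 0.678, 0.559 and 0.165, reached by dropping library 2 (Bin1 and Cttn) or 1 (Rtn3) of the 2-library set. The 3 calls given here for Rtn3, Vps29 and Bin1 stayed without each library, with a highest adjusted p of 0.0455 for Vps29. Of 8 tested clearance and ligand genes 0 were called (limma), with 3 at unadjusted p below 0.05, and the authors' deposited table called 2 of them. It called 8 of the 35 genes in all.

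In coverage 11 of 55 measured pathway genes were called higher and 4 lower in the 3-library set. The median log2 difference of the list was 0.16. Of all genes tested 13.2% were called higher and 9.49% lower, so the share called lower in the list (7.27%) is near that. Without 1 library in turn 5 to 12 were called higher and 0 to 2 lower, with 5 higher and 0 lower without library 1 of the 3-library set, and 6 higher and 1 lower without library 3 of it. Aplp1 had 1782, 1765 and 1815 CPM in the 3-library set, against 1689 and 1605 CPM in the 2-library set (adjusted p = 0.263, limma). Of 7 secretase and protease genes Aph1a, a gamma secretase subunit, was higher at 121, 116 and 91.5 CPM in the 3-library set, against 71.4 and 83.5 CPM in the 2-library set (adjusted p = 0.0283), a call lost without 3 of the 5 libraries in turn (adjusted p up to 0.129). Bace1, the beta secretase, had 45.3, 43.3 and 55.9 CPM in the 3-library set, against 29.8 and 36.9 CPM in the 2-library set, which missed the threshold (adjusted p = 0.0602). Rtn4, another reticulon, had 2146, 1923 and 2058 CPM in the 3-library set, against 1350 and 1269 CPM in the 2-library set (adjusted p = 5.63e-05). Of 10 clearance and ligand genes 5 were called higher (3 without library 3 of the 3-library set) and 1 lower. The gene called lower was Reln, with 16.6, 19.7 and 17.8 CPM in the 3-library set, against 32.5 and 28.8 CPM in the 2-library set (adjusted p = 0.0276, limma). This call was lost without library 1 or 3 of the 3-library set. Among those called higher was Cst3, the protease inhibitor cystatin C (adjusted p = 0.000825, limma). It had 4950, 4733 and 5054 CPM in the 3-library set, against 3726 and 3683 CPM in the 2-library set.

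Of 18 regulators of alternative splicing in neurons, 3 were called higher and 5 lower in coverage in the 3-library set. Over all genes tested 13.2% were called higher and 9.49% lower. Of 16 tested 1 (6.25%) had a called event, against 5.82% of all tested genes. Coverage of Rbfox1 was 216, 210 and 238 CPM in the 3-library set, against 481 and 359 CPM in the 2-library set, and Celf2, Rbfox3, Mbnl2 and Celf1 were lower too, the last not without library 1 of the 2-library set (adjusted p = 0.0502). Elavl4 was higher at 106, 92.1 and 99.5 CPM in the 3-library set, against 34.7 and 28.8 CPM in the 2-library set, as were Elavl2 and Srrm4. The adjusted p was 0.000126 for Rbfox1 and 5.85e-06 for Elavl4 (limma). The called event is a 72-nt exon of Nova1, at PSI 0.5, 0.572 and 0.55 in the 3-library set, against 0.956 and 0.874 in the 2-library set (adjusted p = 6.99e-09). The part of these regulators in the inclusion of the Kunitz exons was not tested.

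In the dCas9-SET2 table none of the 5 member exons passed: the authors' deposited table gives adjusted p-values (padj) of 0.191 to 0.78 for them, where 4.96% of 5287 events are below 0.05. All 5 were matched to events of the HSV table by the lengths of the exon and both introns. Levels below are pooled over the 15 distinct runs of a set, with 95% exact intervals for counting error, and the tables were made separately, so levels are not compared between them by a test. Both Kunitz exons showed the same contrast between the genes as in the HSV table, high in Aplp2 and low in App.

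The Aplp2 Kunitz exon (chromosome 9, 31167561 to 31167728 in this table) had PSI 0.823 (0.79 to 0.853) in the second set and 0.802 (0.774 to 0.829) in the first. Single runs, of 55 to 118 reads in the second set and 87 to 140 in the first, lay between 0.644 and 1 with a median of 0.848 in the second set and between 0.618 and 0.901 with a median of 0.833 in the first. The runs overlapped, and the authors' deposited table gives a padj of 0.731. The App Kunitz exon (chromosome 16, 85043576 to 85043743) had PSI 0.0498 (0.0459 to 0.054) in the second set and 0.0568 (0.0532 to 0.0605) in the first. Its runs lay between 0.0271 and 0.0767 (median 0.0509) in the second set and between 0.0349 and 0.0784 (median 0.0554) in the first, and the authors' deposited table gives a padj of 0.64.

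The App OX-2 exon after the Kunitz exon had PSI 0.342 (0.305 to 0.381) in the second set and 0.327 (0.298 to 0.357) in the first, with runs of 24 to 62 and 40 to 91 reads. The authors' deposited table gives it a padj of 0.78. The App 54-nt exon (chromosome 16, 84971408 to 84971461) had PSI 0.965 (0.954 to 0.973) in the second set and 0.936 (0.926 to 0.945) in the first, from 58 and 165 skipping reads. These intervals do not overlap, but single runs do, between 0.918 and 0.992 in the second set and between 0.835 and 0.991 in the first. The authors' deposited table gives the exon a difference in PSI of 0.0195 and a padj of 0.191, the lowest of the 5. The Aplp2 36-nt exon (chromosome 9, 31156190 to 31156225) had PSI 0.845 (0.829 to 0.861) in the second set and 0.825 (0.811 to 0.838) in the first, with a padj of 0.676 in the authors' deposited table.

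**Figure D5:**
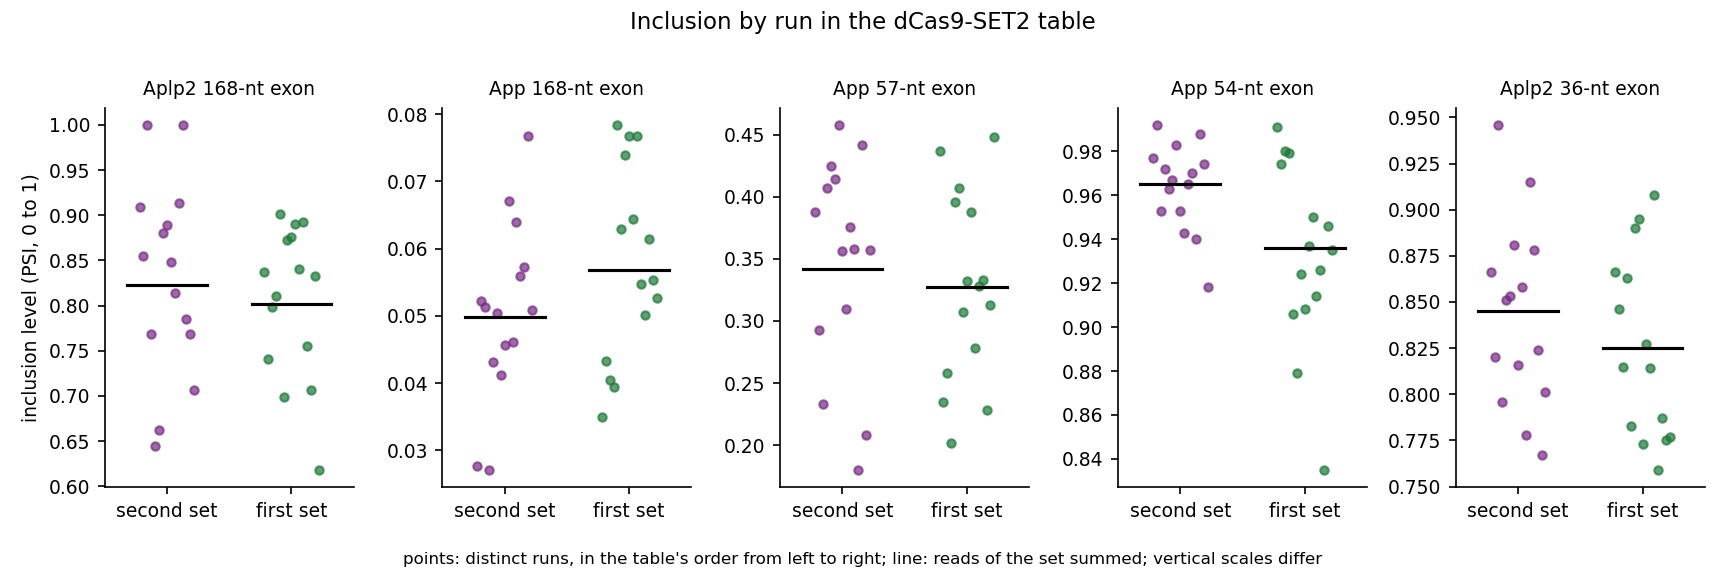
PSI of the 5 member exons in each distinct run of the second set (purple, 15 runs) and the first set (green, 15 runs) of the dCas9-SET2 table, in the order of the table from left to right, with a line at the level of the summed reads. The vertical scales differ between panels, and the runs of the sets overlap in each.

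Levels of the 2 tables are set beside each other here without a test. Those of the dCas9-SET2 table come from summed reads of runs and those of the HSV table are means of libraries. The Aplp2 Kunitz exon stood at 0.802 to 0.823 in both sets of the dCas9-SET2 table. In the HSV table it stood at 0.592 in the 3-library set and at 0.814 in the 2-library set. The App Kunitz exon stood at 0.0498 and 0.0568 in the second and first set, against 0.0414 in the 3-library set and 0.0854 in the 2-library set. The order of the 5 exons by these levels was the same in all 4 sets. In the dCas9-SET2 table, however, the Aplp2 Kunitz and 36-nt exons were not separated. Their single runs overlapped, and so did their intervals of pooled PSI in both sets. By the median of the runs in the first set the order was reversed, with 0.833 for the Kunitz exon and 0.815 for the 36-nt exon.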

How the data were processed

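Values came from 2 deposited tables of exon skipping in nucleus accumbens RNA. The submitters' processing notes name STAR 2.4.1d, Bowtie2, mm9 and mm10 without a role, and the program that made the events is not stated. Deposited read counts stand joined by commas within cells, under 5 value columns (HSV) and 32 (dCas9-SET2) without a sample, so no count model was used. Inclusion levels were recomputed as reads over form length (exon plus 150 against 150, or exon plus 99 against 99) and matched 100% of the deposited values within 0.001. The authors made the p-value, FDR and padj of each event with a test not stated, and also the difference score and the dPSI score. Coordinates are those of each table. Of the member exons, 13 of 16 (HSV) and 5 of 5 (dCas9-SET2) fell within their gene on GRCm38. For matched exons, the HSV start minus the dCas9-SET2 start was 245 nt in App and -192415 nt in Aplp2.

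For the HSV table, limma 3.58.1 in R 4.3.3 was fitted across 7754 events to the logit of inclusion, with 0.5 added to both counts, weights from the reads and Benjamini-Hochberg adjustment. Coverage (0.5 added, TMM trims 0.3 and 0.05, spread trended) was fitted across 8201 genes, so folds of low genes are understated. Genes were matched by ID, 9430 of 9542. Exact tests used SciPy 1.17.1. Both fits were tested on simulated data, in which the added spread of inclusion was set in proportion to counting error. That simulation could not check whether 1 shared spread holds for these libraries. Members, gene lists and tests were chosen with earlier results of these data known. Named were every event of both genes, all genes of the pathway and splicing regulator lists with a called event, and the 3 nearest patterns. Coverage examples from the lists were chosen after their values were seen. Intervals of PSI cover counting error only, while those of logit differences come from the SE of the fit.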

Additional observations from a re-analysis of the deposited data

How the results depend on the processing

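The Kunitz calls of both genes stayed under every alternative run but the fit without weights, and both coverage calls under all of theirs. That fit made 0 calls over all events in limma, though 790 events had an unadjusted p below 0.05, and it also called 0 events of App and Aplp2 and 0 pathway genes. Leaving out 1 library gave 150 to 236 calls over all events, against 286, with the lowest count without library 1 of the 2-library set, 2 to 3 calls of the member events and 4 to 5 pathway genes. The authors' deposited FDR called 974 events, 2 of the member events and 8 pathway genes. The uncalled logit differences changed sign. Without weights that of the App 57-nt exon after the Kunitz exon was -0.0119 and that of the App 54-nt exon -0.0111. Without 1 library they ranged over -0.108 to 0.0915 and -0.514 to 0.482, and that of the Aplp2 36-nt exon over -0.064 to 0.197. The cause was not tested. Keeping the repeated run of the dCas9-SET2 table, an alternative chosen after seeing the data, left the direction of the 5 exons as it was. The 2 libraries of the smaller set limit every test, and without 1 of them the other is assumed to vary like the 3-library set. No paired analysis was possible because the columns carry no replicate numbers.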

Other observations

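The labels give 4 runs to each sample name of the dCas9-SET2 experiment, and whether the positions in the table follow those names is not stated. By blocks of 4 positions, PSI of the App 54-nt exon in the second set ranged over 0.953 to 0.992, 0.963 to 0.983, 0.943 to 0.97 and 0.918 to 0.988. In the first set the blocks ranged over 0.974 to 0.991, 0.879 to 0.924, 0.908 to 0.95 and 0.835 to 0.946, so the first 4 runs lay above all others of that set. PSI of the App Kunitz exon ranged over 0.0271 to 0.0522, 0.0412 to 0.0505, 0.0456 to 0.0671 and 0.0509 to 0.0767 in the blocks of the second set. In the first set it ranged over 0.0349 to 0.0433, 0.0629 to 0.0784, 0.0547 to 0.0767 and 0.0502 to 0.0615, with the first 4 runs below all others. For the Aplp2 Kunitz exon the blocks of the first set ranged over 0.741 to 0.837, 0.699 to 0.901, 0.84 to 0.892 and 0.618 to 0.833, and for the Aplp2 36-nt exon over 0.815 to 0.866, 0.783 to 0.895, 0.773 to 0.908 and 0.759 to 0.787. Some of these blocks do not overlap either, while those of the App 57-nt exon all did in that set. These values were looked at after the runs had been plotted, and no test was made of them.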
